A study of Mus musculus with 30 samples.

Results

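The cytosolic ribosomal proteins were taken as the rows whose gene name is Rpl or Rps followed by a number (with an optional letter), together with the stalk proteins Rplp0, Rplp1 and Rplp2 and the laminin-binding small-subunit protein Rpsa. The rule found 84 of the 17420 rows of the expression table, 49 named for the large subunit and 35 for the small subunit. Annotation as processed pseudogenes applies to 3 of them (Rps3a2, Rps3a3 and Rps4l). They were followed in polyA RNA from quadriceps muscle and spinal cord of 15 male mice aged 4 months, both tissues taken from the same animal, which gave 30 libraries in 10 groups of 3. Gaa is the gene for acid alpha-glucosidase, which breaks down glycogen in lysosomes and is lost in Pompe disease. The study set Gaa knockout (KO) animals beside wild types (WT) on a B6;129 background and again on a B6;129;DBA2/J background. All groups of the latter (called the DBA mix below), wild types included, carry the Ltbp4D36/D36 allele. A further DBA mix group held KO mice injected intravenously as neonates with an adeno-associated virus, AAV9, encoding secreted human GAA under a liver-muscle promoter (LiMP). The promoter is named for liver and muscle, and expression of the transgene in the treated cord was not tested. The background also coincides with a letter in the library names (A for B6;129, B for the DBA mix), whose meaning the labels do not state. Background, Ltbp4 allele and whatever the letter stands for therefore cannot be told apart.

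A ribosome joins a small subunit, which reads the messenger RNA, to a large subunit, which forms peptide bonds, and each subunit is built from ribosomal RNA and a fixed set of proteins. Most of these proteins are needed in equal numbers, and their messenger RNAs share a short stretch of pyrimidines at the very start of the transcript (the terminal oligopyrimidine, or TOP, element) through which the TOR kinase and the protein Larp1 control their translation. Striated muscle has its own version of a large-subunit protein, Rpl3l, which takes the place of the general form Rpl3 near the peptidyl transferase centre. Rpl3 is known to come back in muscle that regenerates or grows, while Rpl3l declines.

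Transcript starts are shown because a pyrimidine tract stood there in a larger share of members than of all genes, although in a minority of members, and the name rule did not use it. RefSeq promoters of GRCm38.p6 held 61 of the 84 members. A C followed by at least 4 bases that are each C or T stood exactly at the annotated start, on the gene's strand, in 13 of them (21.3%). The share was 3.01% over 27025 genes with a promoter and 0 of 69 for mitochondrial ribosomal proteins. Allowing the tract to begin within 5 bases of the start gave 47.5% of members, 21.2% of all genes and 24.6% of mitochondrial ribosomal proteins. These lines give 15 bases before and 15 bases from the start, with the pyrimidine tract at the start in capitals. The first 4 are members with a tract: Rps21, Rps6 and Rps27, small-subunit proteins, and the stalk protein Rplp2. The last 3 are second forms of Rpl3, Rpl22 and Rps27, without one at that base. In the letters shown, Rpl22l1 and Rps27l begin such a tract within 5 bases of the start, and Rpl3l does not.
Rps21 (chr2:180257364-180257393, plus strand): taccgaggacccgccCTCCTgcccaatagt
Rps6 (chr4:86857353-86857382, minus strand): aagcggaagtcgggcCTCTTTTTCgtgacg
Rps27 (chr3:90213634-90213663, minus strand): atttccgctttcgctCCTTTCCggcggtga
Rplp2 (chr7:141447636-141447665, plus strand): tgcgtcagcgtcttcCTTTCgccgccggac
Rpl3l (chr17:24727811-24727840, plus strand): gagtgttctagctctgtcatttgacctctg
Rpl22l1 (chr3:28805493-28805522, plus strand): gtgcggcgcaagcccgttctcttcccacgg
Rps27l (chr9:66946071-66946100, plus strand): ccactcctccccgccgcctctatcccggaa
A missing match says only that these letters do not stand at the annotated base.

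The libraries matched their labels for Gaa: its normalised signal (reads per gene scaled between libraries by the authors, not per length) was 169 to 308 in WT quadriceps and 11.6 to 18.9 in KO and treated quadriceps. In cord it was 131 to 236 in WT and 8.09 to 17.7 in KO and treated animals. The row is that of the mouse gene, and the human transgene was not analysed here. Depth ran from 16854081 to 37136087 recovered reads in quadriceps and from 19208733 to 34207758 in cord. Skeletal muscle markers (Ckm, Acta1, Myh4, Myh1, Mb and Tnnt3) summed to at least 118182 in every quadriceps and to 26.3 to 1268 in cord, and neuron markers summed to at most 4.57 in quadriceps and at least 2371 in cord. In whole tissue, fewer cells of a type and less RNA per cell cannot be told apart. Within a tissue, p-values measure the spread between animals. Main p-values between tissues come from a fit without the animal, which treats both libraries of an animal as independent. The fit with the animal as replicate block is an alternative.

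Ribosomal protein genes have many near-identical processed copies in the genome, and this touched single members before any comparison. Of the 84 members, 82 shared at least 1 stretch of 61 bases, the read length, with another gene, and 46 had at least 1 near-identical copy as a row of its own, 54 such rows in all. For some members, signal traded off between the member's row and that of its copy from animal to animal. The cause was not tested. Rps13, a small-subunit protein (chr7:116331505-116334195 of GRCm38, minus strand), is a plain case. Its signal in B6;129 WT quadriceps was 159, 8.15 and 8.76, while the row of its processed pseudogene Rps13-ps1 (chr8:87047689-87048226, plus strand) held 1.55, 165 and 128. In B6;129 KO quadriceps Rps13 was 95.1, 17.7 and 8.01, and Rps13-ps1 held 100, 195 and 202. The cord of the same WT animals gave 68.1, 16.2 and 14.1 for Rps13 and 0.596, 47.6 and 52.2 for Rps13-ps1, so that the pattern went with the animal in both tissues. The sums of Rps13 and all its copy rows in quadriceps were 136 to 174 in B6;129 WT, 195 to 213 in B6;129 KO, 171 to 200 in DBA mix WT, 203 to 230 in DBA mix KO and 153 to 173 in treated animals, where KO and WT did not overlap on either background.

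The copies differ from their members at few bases, which is why they are printed here. Over the aligned part of the transcripts, Rps13 and Rps13-ps1 were identical at 520 of 522 bases. Rpl3 (chr15:80077791-80091868, minus strand) and the processed pseudogene Rpl3-ps1 (chrX:13202571-13203780, plus strand) were identical at 1208 of 1210. Rps3a1 (chr3:86137940-86142702, minus strand), a small-subunit protein, and its processed copy Rps3a2 (chr14:88123017-88123808, minus strand) were identical at 788 of 792. Capitals mark the bases that differ in windows of 30 bases of the transcript, 5′ to 3′.
Rps13: cccaccTaattggaaatatgagtcAtccac
Rps13-ps1: cccaccCaattggaaatatgagtcGtccac
Rpl3: gggcttcctgcctcgCaagcgcagcagccg
Rpl3-ps1: gggcttcctgcctcgAaagcgcagcagccg
Rps3a1: aagtAaaaatgctgaagaaacccaagtTtg
Rps3a2: aagtTaaaatgctgaagaaacccaagtCtg
The windows do not show every differing base of the Rpl3 and Rps3a1 pairs. Reads within the aligned part that cover no differing base, shown here or not, fit both rows of a pair. The copy Rpl3-ps1 held 27.5 to 59.4 in untreated DBA mix quadriceps and at most 0.036 in B6;129 quadriceps. The copy Rps13-ps1 showed the opposite, with at most 3.34 in DBA mix quadriceps. Rps3a1 was 474, 302 and 123 in B6;129 WT quadriceps, while its sum with copies was 474, 484 and 429. With copies summed, the number of members with a coefficient of variation above 25% fell from between 3 and 6 per group to between 0 and 2. The main counts of members called are therefore also given with the copy rows added to their members, an alternative chosen after seeing the data, which leaves 82 features. Counts by subunit, by length and of groups that do not overlap are for the rows as deposited.

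**Figure D1:**
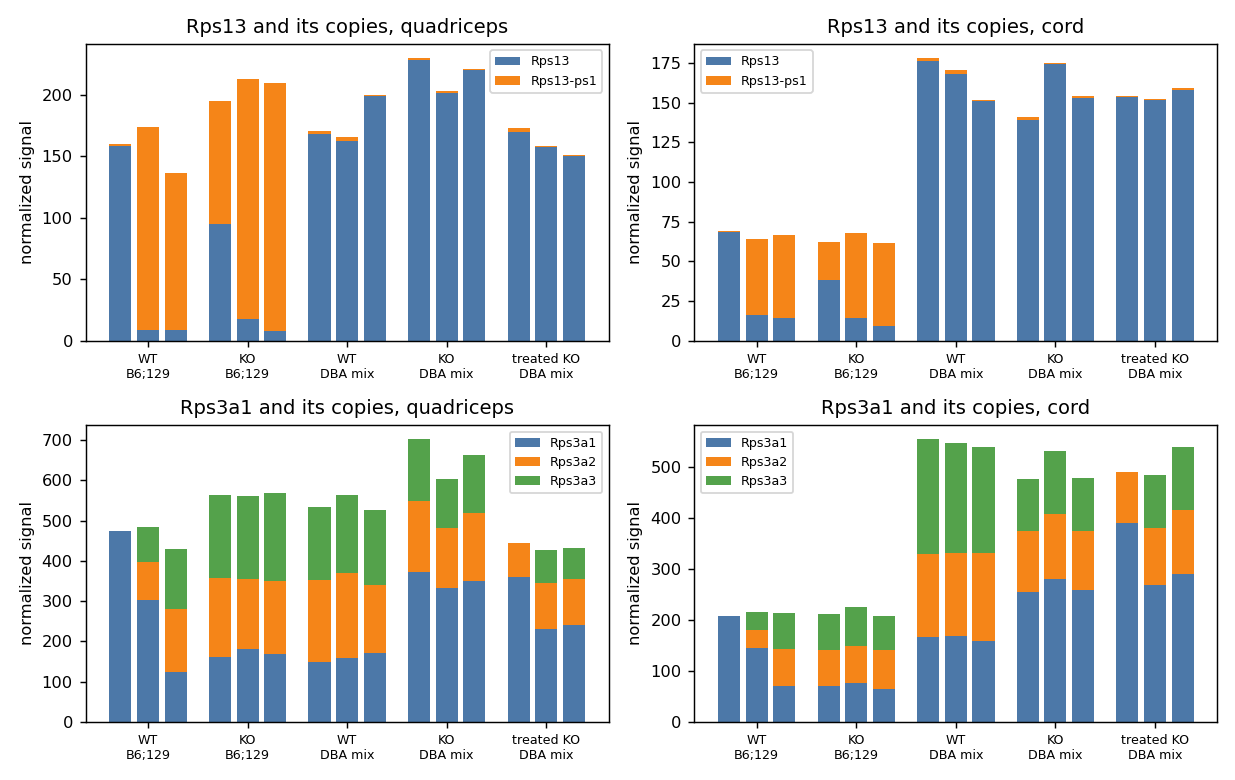
Normalised signal of Rps13 and of Rps3a1 with their near-identical copies, stacked, in quadriceps and cord. Each bar is an animal, in the same order in both tissues; the colours trade places between animals, while the whole bars of a group differ less.

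Among levels per kilobase of transcript (signal divided by the length of one coding transcript, computed for 81 members), Rplp1 was highest in B6;129 WT quadriceps at 840 and Rpl12 lowest at 5.95. With copies summed the lowest members there were Rpl7l1 at 38.5, a relative of Rpl7, and Rpl3 at 42.7. In cord of the same animals the lowest was Rpl3l at 0.97 per kilobase. The members took 0.959% to 1.13% of all reads in B6;129 WT quadriceps and 1.13% to 1.21% in DBA mix WT quadriceps. In KO quadriceps the share was 1.5% to 1.60% and 1.52% to 1.88%. Treated animals had 0.949% to 1.11%, below every untreated KO library. The share of mitochondrially encoded RNA moved too: counted without those reads, the mean member share was 1.32% in B6;129 WT and 1.83% in KO quadriceps.

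**Figure D2:**
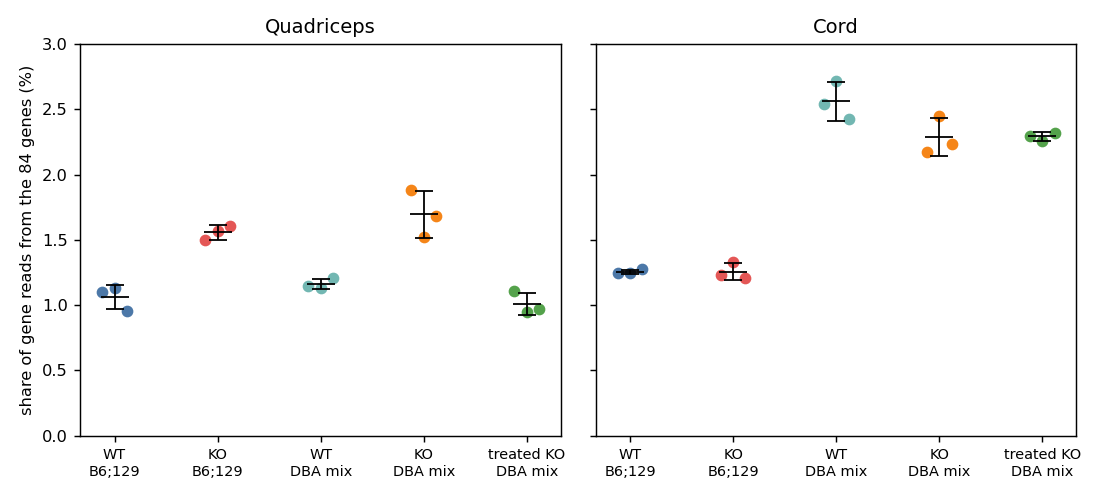
Share of gene reads that fell on the 84 members, in percent, for each library of quadriceps and cord. Points are animals, and bars give the mean and SD of 3; untreated KO quadriceps lie at 1.5% or above and all other quadriceps at 1.21% or below.

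Most ribosomal protein messages were higher in KO than in WT quadriceps on both backgrounds. On B6;129, 49 members rose and 2 fell (limma on log2 signal, called at an adjusted p below 0.05 over all genes tested), against 16.7% of all 14113 genes tested called higher and 19% called lower. The median member was 0.30 higher on the log2 scale (1.23-fold), where the median of all genes was -0.02. In the DBA mix 47 members rose and 2 fell, with 17.1% of all genes called higher and 22.3% lower, and medians of 0.31 and -0.04. With copies summed the counts were 56 and 2 of 82, and 54 and 1 of 82. KO and WT animals did not overlap for 59 members on B6;129 (53.9% of all genes) and 57 in the DBA mix (46.4%). Of the members that rose, 43 did so on both backgrounds, which is 87.8% of the B6;129 list and 91.5% of the DBA mix list. The matching share over all genes is not given here, so whether this overlap is particular to the members cannot be told. The lists come from different animals. No member was called by limma for a KO effect that differed with background (0 by edgeR, 1 by DESeq2), where 0.283% of all genes were called. At an unadjusted p under 0.05 there were 2 members, beside 1537 of 14113 genes.

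**Figure D3:**
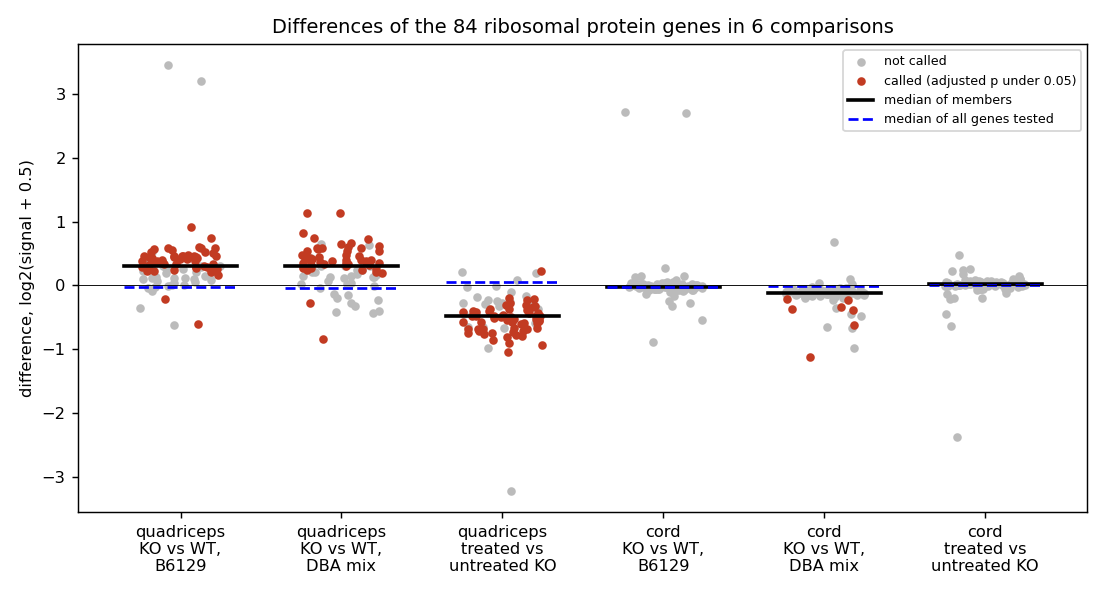
Difference of each member, as log2(signal + 0.5), in 6 comparisons of quadriceps and cord. Each point is a member, red where called; solid lines are medians of the members (0.30, 0.31 and -0.48 in quadriceps) and dashed lines medians of all genes tested.

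Members of both subunits were among them. Of 49 large-subunit members 30 rose and 2 fell on B6;129, with a median of 0.30, and of 35 small-subunit members 19 rose, with a median of 0.31. In the DBA mix the counts were 27 and 1 for the large subunit and 20 and 1 for the small subunit. Of the 38 members without a copy row 25 rose and 2 fell on B6;129 with a median of 0.25, and 23 rose and 1 fell in the DBA mix with a median of 0.28. The difference went with transcript length in genes at large. Among genes with transcripts of up to 600 bases the median KO difference on B6;129 was 0.26 for 28 members and 0.20 for 189 other coding genes. From over 600 to 1000 bases it was 0.33 for 33 members and 0.15 for 718 others, and from over 1000 to 2000 bases 0.29 for 18 members and 0.06 for 2982 others. The same classes gave, for the DBA mix, 0.36 and 0.24, 0.31 and 0.16, and 0.26 and 0.06. The part of length in the result was not tested beyond these medians.

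**Figure D4:**
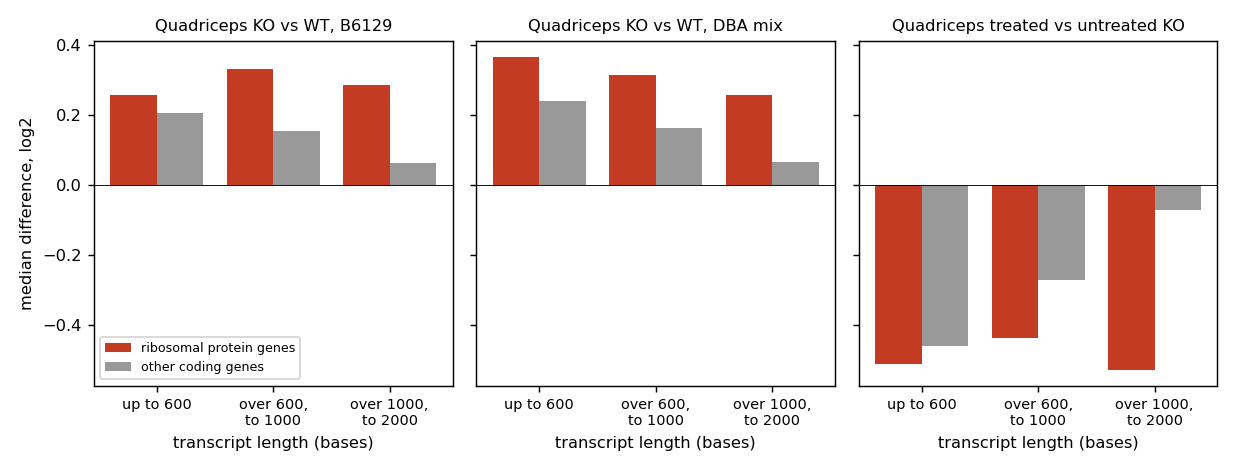
Median log2 difference of members (red) and of other coding genes (grey) by transcript length in bases, for KO against WT on each background and for treated against untreated KO in quadriceps. Bars are medians over genes; the members' bar is farther from 0 in every class, by 0.26 against 0.20 in the closest KO class.

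Members of the flexible stalk of the large subunit, where elongation factors bind, differed in part. Rplp1, which pairs with Rplp2 at the stalk's tip, was 411, 466 and 381 in B6;129 WT quadriceps and 609, 647 and 652 in KO. Among DBA mix animals Rplp1 was 455, 474 and 510 in WT, 657, 568 and 671 in KO and 455, 409 and 401 after treatment. Every untreated KO animal was above every WT animal and every treated animal. The log2 difference of Rplp1 was 0.60 ± 0.09 (SE; limma adjusted p = 0.000161) on B6;129 and 0.40 ± 0.09 in the DBA mix (limma adjusted p = 0.00312). Rplp2 was 166 to 207 in B6;129 WT and 254 to 266 in KO, again without overlap. For the DBA mix, Rplp2 lay at 194 to 226 in WT and 224 to 295 in KO, and the lowest KO animal fell within the WT range, although the test was passed (0.36, limma adjusted p = 0.0134). Rplp0, the base of the stalk, was too variable to call: it was 848, 670 and 610 in B6;129 WT and 791, 520 and 777 in KO, and its DBA mix WT animals ran from 443 to 951. The row of the copy Gm8730, identical to Rplp0 at 942 of 954 aligned bases, held a signal that differed between animals.

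Other members with large differences belong to both subunits. Rpl41, a very short basic peptide, was 242, 294 and 224 in B6;129 WT quadriceps and 356, 367 and 399 in KO. Its DBA mix values were 250, 239 and 293 in WT, 477, 405 and 503 in KO and 255, 214 and 202 after treatment. Untreated KO animals overlapped neither WT nor treated animals of their background, while WT and treated animals overlapped. The log2 differences were 0.57 ± 0.12 and 0.82 ± 0.12 for the KO (limma adjusted p = 0.00235 and 0.000147) and -1.05 ± 0.12 for treatment (limma adjusted p = 1.63e-05). Rps27a, made as a fusion of ubiquitin and a small-subunit protein, was 182, 206 and 171 in B6;129 WT and 274, 276 and 282 in KO. Its DBA mix values were 198, 197 and 220 in WT, 336, 308 and 322 in KO and 186, 180 and 169 after treatment. Rps27a separated KO from the other groups as well, with log2 differences of 0.58, 0.65 and -0.85, each ± 0.07 (limma adjusted p = 5.46e-05, 2.03e-05 and 1.85e-06). Rps21, one of the tract-bearing members shown above, was 115 to 152 and 190 to 199 in B6;129 WT and KO, and 130 to 151, 206 to 246 and 110 to 137 in DBA mix WT, KO and treated animals. Untreated KO animals were again separate from the other groups of their background, while WT and treated animals overlapped. Rpl27a, a large-subunit protein, rose by 0.55 on B6;129 and by 0.75 in the DBA mix (limma adjusted p = 0.001 and 9.03e-05), the latter 0.49 with copies summed. Rpl21, another, was 41.5 to 50 in B6;129 WT and 65.5 to 71.6 in KO (0.59, limma adjusted p = 0.00164), while its DBA mix difference of 0.30 was not called (limma adjusted p = 0.0556). Both a large-subunit and a small-subunit row differed less with copies summed: Rpl27 differed by 0.74 on B6;129 and by 0.31 with copies summed, and Rps3a1 by 1.14 in the DBA mix and by 0.28 with copies summed, all called.

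Rps6, the small-subunit protein that S6 kinase phosphorylates downstream of TOR, was 222, 228 and 198 in B6;129 WT quadriceps and 281, 313 and 299 in KO. Rps6 in DBA mix animals was 262, 239 and 298 in WT, 378, 349 and 383 in KO and 284, 242 and 221 after treatment. No WT or treated animal reached the lowest KO animal of its background, and the log2 differences were 0.46 and 0.48 for the KO (limma adjusted p = 0.00263 and 0.00195) and -0.57 for treatment (limma adjusted p = 0.000434). Its processed copy Rps6-ps4 held a mean of 65.4 in B6;129 WT and 50.5 in KO, and 80.4 and 43.7 in DBA mix WT and KO. With the copy added, the Rps6 differences were smaller, 0.31 and 0.25 for the KO and -0.37 for treatment, each still called (limma adjusted p = 0.00164, 0.0053 and 0.000302). The member nearest the median in the DBA mix, Rpl35, was 90.9 to 114 in WT and 116 to 128 in KO and missed the threshold (0.30, limma adjusted p = 0.0631), which it passed with copies summed (0.30, limma adjusted p = 0.0216). Rpl7, which binds RNA in the large subunit, was 313 to 332 in B6;129 WT and 394 to 401 in KO, a log2 difference of 0.29 on each background (limma adjusted p = 0.00129 and 0.00106). Rps4x, a small-subunit protein encoded on the X chromosome, differed by 0.26 and 0.25, and was 286 to 309 in B6;129 WT and 356 to 362 in KO. Rpl39, a small protein at the exit tunnel, differed by 0.45 and 0.58, both called. Rpl10, which joins the large subunit late in its assembly, differed by 0.46 on B6;129 (limma adjusted p = 0.0188), while 0.28 in the DBA mix was not called (limma adjusted p = 0.114). Rpl4, a large-subunit protein with a long internal loop, did not follow the others: it was 649 to 775 in B6;129 WT and 692 to 708 in KO, and the DBA mix difference of -0.13 was not called.

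Rpl3 and its muscle counterpart went opposite ways. Rpl3 was 54.3, 62.7 and 56 in B6;129 WT quadriceps and 104, 109 and 116 in KO. The Rpl3 row was lower throughout in the DBA mix, at 27.4, 18.6 and 26.4 in WT, 56.8, 50 and 52.4 in KO and 25.1, 26.7 and 42 after treatment. KO animals lay above all others of their background, by 0.92 ± 0.17 and 1.14 ± 0.17 on the log2 scale (limma adjusted p = 0.00102 and 0.000192). Adding the reads of Rpl3-ps1 removed the gap between backgrounds: the sums were 54.9, 52.6 and 59.7 in DBA mix WT, 116, 103 and 93.8 in KO, and 62.1, 60.2 and 54.6 after treatment. On these sums Rpl3 was the member with the largest rise in either KO comparison, 0.92 on B6;129 and 0.89 in the DBA mix, and fell by 0.81 with treatment.

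Rpl3l (chr17:24727820-24736143, plus strand) was 664, 675 and 664 in B6;129 WT quadriceps and 584, 569 and 568 in KO. Rpl3l in DBA mix animals was 649, 678 and 740 in WT, 551, 541 and 625 in KO and 676, 650 and 685 after treatment. All KO animals were below all WT and treated animals of their background. It was the only member called lower on both backgrounds, by -0.22 ± 0.07 and -0.27 ± 0.07 (limma adjusted p = 0.0209 and 0.00632), and the only one called higher with treatment, by 0.23 ± 0.07 (limma adjusted p = 0.0139). These small Rpl3l differences depended on the scaling: under quantile normalization they were -0.04, -0.05 and 0.08 and none was called, and edgeR did not call the treatment difference (0.18, adjusted p = 0.0646). Leaving out 1 animal also ended the call on B6;129 (without WT replicate 5, KO replicate 2 or KO replicate 3) and for treatment (without KO replicate 6 or 7). The ratio of Rpl3l to Rpl3 signal was 10.8 to 12.2 in B6;129 WT and 4.90 to 5.62 in KO. For DBA mix animals, where the row of the copy Rpl3-ps1 also holds signal, the ratio was 23.7 to 36.4 in WT, 9.70 to 11.9 in KO and 16.3 to 26.9 after treatment. The KO difference of the log2 ratio, over both backgrounds, was -1.27 (exact two-sided permutation within backgrounds, p = 0.005, adjusted 0.0125 over 10 ratio tests), and -1.15 with copies summed. The smallest p that the 400 regroupings allow is 0.005, and 0.1 on 1 background alone.

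**Figure D5:**
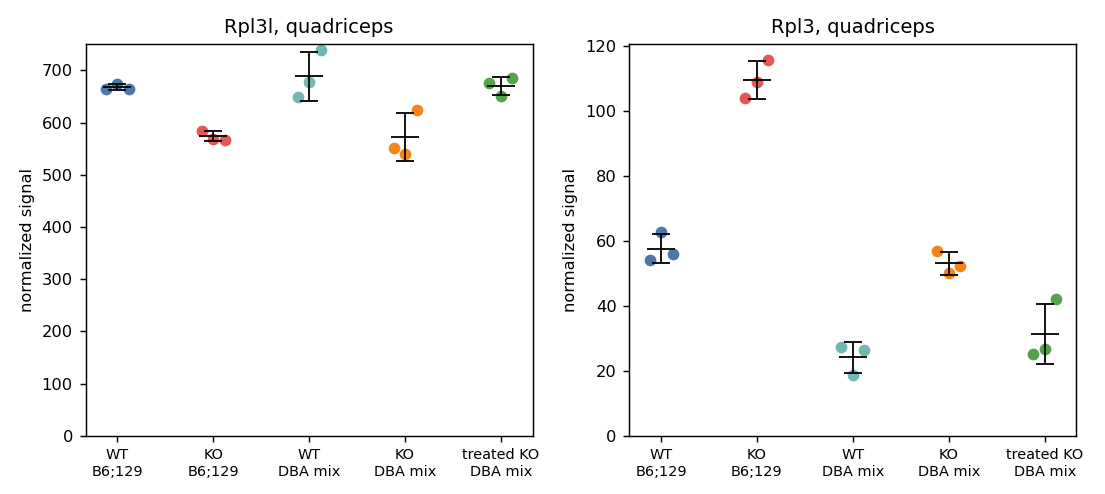
Normalised signal of Rpl3l and Rpl3 in each quadriceps library, by group. Points are animals, and bars give the mean and SD of 3; in untreated KO animals Rpl3 lies above and Rpl3l below the WT and treated animals of the same background.

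Ratios of other second forms to their counterparts were compared in the same way. Rpl22l1, a relative of the large-subunit protein Rpl22 and known to be repressed by it, was 65.9, 96.1 and 72.3 in B6;129 WT quadriceps and 49.2, 47.9 and 55.4 in KO. KO animals were below all WT animals, by -0.60 ± 0.13 (limma adjusted p = 0.00335), while the DBA mix difference of -0.32 was not called (limma adjusted p = 0.0708). Rpl22 was 125 to 154 in B6;129 WT and 161 to 170 in KO. The ratio of Rpl22l1 to Rpl22 was 0.485 to 0.624 and 0.282 to 0.331 in B6;129 WT and KO, and 0.496 to 0.618, 0.317 to 0.411 and 0.484 to 0.618 in DBA mix WT, KO and treated animals. The KO groups did not overlap the others. Over both backgrounds its log2 difference was -0.76, and the ratios of Rps27l, a p53-induced form, to Rps27 and of Rpl7l1 to Rpl7 differed by -0.25 and -0.23, each with an exact permutation p of 0.005 (adjusted 0.0125). In these last pairs the counterparts Rps27 and Rpl7 were called higher on both backgrounds (Rps27 on B6;129 not with copies summed, limma adjusted p = 0.0554), while Rps27l and Rpl7l1 passed on neither: Rps27l was 77.6 to 99.5 in B6;129 WT and 93.6 to 104 in KO. Rps4l, annotated as a transcribed processed pseudogene, was at 0.932 to 2.19 in every quadriceps, and its ratio to Rps4x did not pass (exact permutation p = 0.43).

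Markers of other cells moved with these differences in quadriceps. The 7 macrophage markers (Cd68, Mpeg1, Csf1r, Lyz2, Ptprc, C1qa and Adgre1) were all called higher in KO on each background. Their summed signal was 53.8 to 73.7 and 280 to 362 in B6;129 WT and KO, and 89.4 to 130, 239 to 468 and 65.1 to 161 in DBA mix WT, KO and treated animals. Markers of satellite cells and new fibres (Pax7, Myod1, Myog, Myh3, Myh8 and Mymk) were called higher for 5 of 6 and 4 of 6, with sums of 68.2 to 87.6 and 229 to 322, then 56.2 to 77 and 188 to 218, and 64.3 to 65.8 after treatment. Fibroblast markers (Col1a1, Col1a2, Dcn and Pdgfra) were called higher for 3 of 4 and 2 of 4, and all 3 endothelial markers (Pecam1, Cdh5 and Tie1) were called lower on both backgrounds. The part of these cells in the ribosomal protein differences was not tested.

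Most members were lower in treated than in untreated KO quadriceps. In quadriceps of treated against untreated KO animals 59 members fell and 1, Rpl3l, rose, where 17.1% of all genes were called lower and 23.6% higher. The median member was -0.48 (0.716-fold) and the median of all genes 0.05. With copies summed 71 of 82 fell and 1 rose. The groups did not overlap for 67 members (49.4% of all genes). The untreated KO animals enter this comparison and the KO against WT comparison of the same background, so the 2 comparisons are not independent. By length class the medians were -0.51 for members and -0.46 for other genes up to 600 bases, -0.44 and -0.27 from over 600 to 1000, and -0.53 and -0.07 from over 1000 to 2000. Large-subunit members gave 34 lower and 1 higher of 49 and small-subunit members 25 lower of 35. Rpl18, a large-subunit protein, lay near the middle, at 297 to 339 in untreated KO and 220 to 251 in treated animals without overlap (-0.48, limma adjusted p = 0.00022). Rpl7l1 was lower with treatment by -0.23 (limma adjusted p = 0.0233), Rpl22l1 at 0.19 was not called (limma adjusted p = 0.272), and Rpl10 at -0.32 was not called (limma adjusted p = 0.0802), but was with copies summed (-0.29, limma adjusted p = 0.0194).

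Treated KO quadriceps differed little from WT quadriceps of the DBA mix in single members, while the median member lay slightly lower. The test called 2 members lower, Rplp0 (-0.99 ± 0.25, limma adjusted p = 0.0493) and Rpsa (-0.98 ± 0.23, limma adjusted p = 0.0363), and 0 higher, with 2.98% of all genes called in either direction. With copies summed 5 were lower; Rplp0 was -0.59 and still called (limma adjusted p = 0.0431), while Rpsa was -0.50 and no longer called (limma adjusted p = 0.0761). DESeq2 called 0 higher and 7 lower, and edgeR called no member higher. At an unadjusted p under 0.05 there were 26 of 84 members, beside 3105 of 14113 genes tested. Leaving out any 1 of the 6 libraries gave between 0 and 5 members in all. The median member was -0.15, where the median of all genes was 0.02, and 80 of 84 members were below 0. Members share these libraries, so their signs are not independent. Rpsa was 324, 314 and 248 in WT, 285, 184 and 437 in untreated KO and 179, 142 and 129 in treated animals, and treated animals were the lowest of all. The row of the copy Rpsa-ps10 also held signal in the DBA mix. With it the Rpsa sums were 558 to 699 in WT and 379 to 519 after treatment. Between the WT quadriceps of the backgrounds 4 members were higher in the DBA mix, Rps3 and Rps4x among them, and 1, Rpl3, lower, where 1.39% of all genes were called higher and 1.18% lower. Rps3, a small-subunit protein at the messenger RNA entry, was 257 to 297 in B6;129 and 365 to 373 in the DBA mix WT (0.41, limma adjusted p = 0.00445). The Rpl3 call (-1.26) was absent with copies summed, when 7 were higher and 0 lower.

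No member passed the test for a rise in KO spinal cord. On B6;129, 2 of 84 members had an unadjusted p under 0.05, beside 1733 of 15838 genes tested. After adjustment limma called 0 members in either direction (edgeR 0 and DESeq2 1), where 1.16% of all genes were called, and the median member was -0.02. With copies summed the count was 0 as well. Rpl3 in cord was 312, 313 and 310 in WT and 300, 325 and 303 in KO, so that the groups overlapped. Rplp1 was 199 to 215 and 218 to 235, and Rps6 180 to 184 and 174 to 184. In the DBA mix 23 of 84 members had an unadjusted p under 0.05 in either direction, beside 4542 of 15838 genes tested. After adjustment 7 members were called lower in KO cord and 0 higher (edgeR 0 and DESeq2 0 higher), where 5.85% of all genes were called lower and 7.16% higher. They included Rplp0 (-0.63), Rpl11 (-0.38), Rps2 (-0.38), Rpl29 (-0.34), Rpl22l1 (-0.22) and Rpl9 (-0.21), at limma adjusted p from 0.0161 to 0.0494, and the median member was -0.12. Rpl29, a heparin-binding large-subunit protein, was 68.2, 69.6 and 62.7 in WT and 53.1, 55.1 and 49.5 in KO. Rpl22l1 was 94, 97 and 94.9 in WT and 74.8, 90.1 and 80.6 in KO. Neither overlapped. With copies summed 6 were lower. Rpl29 was then -0.12 and Rpl11 -0.13, neither called (limma adjusted p = 0.12 and 0.178). Rplp0 was -0.25 and still called (limma adjusted p = 0.0102). The count rested on single animals: without KO replicate 7 it was 27, without KO replicate 6 it was 3, and without KO replicate 8 it was 4.

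No member passed the test for treatment in cord. Limma called 0 members between treated and untreated KO cord (edgeR and DESeq2 0), but it called 0 of all genes tested as well, so 0% is the background. At an unadjusted p under 0.05 there were 3 of 84 members, beside 1697 of 15838 genes. The median member was 0.01. Against WT cord of the DBA mix, treated animals had 8 members lower and 1 higher, where 7.95% of all genes were called lower and 8.81% higher, and 5 lower with copies summed. Rpl22l1 (-0.22) and Rpl9 (-0.20) were called lower here as well, but these comparisons share the WT libraries. For a KO effect in cord that differed with background, limma called 0 members (DESeq2 1), where 0.524% of all genes were called. Before adjustment 7 of 84 members had a limma p under 0.05 there, beside 1860 of 15838 genes. Rpl3l was scarce in cord, at 0.241 to 8.23 over all libraries against 541 to 740 in quadriceps, and its ratio to Rpl3 did not pass the test in cord (exact permutation p = 0.44). The other 4 cord ratios did not pass either, at adjusted p of 0.11 or above.

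The widest difference in cord lay between the backgrounds. In WT cord 80 of 84 members were higher in the DBA mix and 1 lower, where 32.3% of all genes were called higher and 34.5% lower. The median member was 1.45 higher on the log2 scale (2.73-fold) and the median of all genes -0.02. Rps21 was 77, 84 and 83.9 in B6;129 and 328, 314 and 268 in the DBA mix WT. Rpl41 was 142, 149 and 158 against 516, 503 and 433, and Rpl4, a long transcript among the members, 278 to 282 against 540 to 555. The groups lay far apart. The member called lower was Rpl3 (-0.48, limma adjusted p = 0.0153), at 310 to 313 in B6;129 and 210 to 232 in the DBA mix. With copies summed Rpl3 was 500 to 519 in the DBA mix and higher by 0.70, and 81 of 82 features were higher and 0 lower. Short transcripts were higher in general: the medians were 1.61 for members and 1.12 for other coding genes up to 600 bases, 1.41 and 0.80 from over 600 to 1000 bases, and 1.24 and 0.39 from over 1000 to 2000 bases. Across 81 members the log2 difference went with log2 transcript length at Pearson r = -0.42 (Spearman rho = -0.45), a description across genes that share their libraries. Mitochondrially encoded RNA took 6.99% to 7.7% of reads in B6;129 cord and 13.2% to 17.1% in DBA mix cord. Since the background coincides with the letter in the library names, background, allele, handling and whatever the letter stands for cannot be told apart for this difference.

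Tissues were compared last. In B6;129 WT animals 77 members were higher in quadriceps than in cord and 2 lower, with 44.9% of all genes called higher and 36.4% lower. The members lower in quadriceps were Rpl3 (-2.43 ± 0.18, limma adjusted p = 3.65e-12) and Rps4l (-2.08). Besides Rpl3l at 8.70 the largest positive differences were those of Rps27l (3.26), Rplp0 (2.59) and Rps2 (2.35), a small-subunit protein. The order between tissues was not the same on both backgrounds, which cannot be told apart from the allele and the letter. In DBA mix WT animals 15 members were higher in quadriceps (45.1% of all genes) and 39 were lower (37.4% of all genes). The median was -0.22 there, against 0.96 on B6;129. With copies summed the B6;129 counts were 80 and 2. These B6;129 counts also varied with scaling. Quantile normalization gave 48 higher and 8 lower. With its own scaling edgeR gave 74 and 2 and moved the median of all genes from 0.14 to -0.01.

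The KO and treatment differences themselves differed between the tissues. On B6;129, 34 members had a KO difference more positive in quadriceps than in cord and 1 more negative (Rpl22l1), where 12.2% of all genes were called more positive and 13.1% more negative. The total of 35 was 23 with the animal as replicate block. It was 19 without quadriceps WT replicate 6. In the DBA mix 51 were more positive and 0 more negative (edgeR and DESeq2 also 0), where 13.6% of all genes were called more positive and 18.7% more negative. For treatment 58 were more negative and 0 more positive (edgeR and DESeq2 also 0), where 14% of all genes were called more negative and 19.6% more positive. Median differences between the tissues were 0.34, 0.45 and -0.50. With copies summed 37 of 82 were more positive and 1 more negative on B6;129, 58 and 0 in the DBA mix, and for treatment 0 more positive and 69 more negative. The largest for the KO was that of Rpl3, at 0.93 and 1.28. For treatment Rpl41 (-1.09) and Rpl3 (-1.05) were farthest from 0.

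Other genes of translation were counted in quadriceps by the same test. Of all genes, 16.7% were called higher and 19% lower for the KO on B6;129, 17.1% and 22.3% in the DBA mix, and 23.6% and 17.1% with treatment. Among ribosomal proteins that the name rule misses, 3 of 5 tested rose on B6;129, Rpl36al and Fau among them, 2 of 5 rose in the DBA mix, and 3 of 5 fell with treatment. Of 16 translation factors of the TOP class 5 rose and 1 fell on B6;129, 5 rose and 5 fell in the DBA mix, and 6 rose and 5 fell with treatment. Eef1a1, the general form of the elongation factor that brings transfer RNA to the ribosome, rose by 1.54 and 1.23 in KO and fell by 1.05 with treatment. Eef1a2, the form of mature muscle and neurons, was -0.57 in the DBA mix KO and 0.83 with treatment, both called. Naca, a chaperone subunit at the ribosome exit with a long muscle isoform, was -0.58 in the DBA mix KO and 1.05 with treatment, both called. Mitochondrial ribosomal proteins, 78 in number, gave 8 higher and 8 lower on B6;129, 13 and 8 in the DBA mix, and 2 higher and 28 lower with treatment, with medians of 0.00, 0.03 and -0.14.

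Genes of the machinery that makes ribosomes were called in both directions in quadriceps, beside the same shares of all genes. Of 18 genes of RNA polymerase I and its factors, which transcribe ribosomal RNA, 4 rose and 5 fell on B6;129, 5 and 7 in the DBA mix, and 7 rose and 7 fell with treatment. Polr1d rose by 0.46 and 0.53, while Tcof1, a nucleolar factor for that transcription, was -0.89 in the DBA mix KO and 1.26 with treatment. Of 54 ribosome assembly genes 6 rose and 3 fell on B6;129, 3 rose and 13 fell in the DBA mix, and 9 rose and 6 fell with treatment. Fbl, the methyltransferase of ribosomal RNA, rose by 0.41 and 0.51. Of 17 genes of the TOR pathway and regulators of TOP messages 2 rose and 5 fell on B6;129, 0 rose and 13 fell in the DBA mix, and 12 rose and 2 fell with treatment. The list holds Mtor, Rptor and Rheb as well as inhibitors, while the genes named here are all inhibitors or repressors. Values of the others are not given here, and TOR activity was not tested. Tsc1, an inhibitor of TOR, was at -0.77 and -0.59 in KO and 0.72 with treatment. Deptor, another inhibitor, was -0.65 and -0.70 in KO, and Eif4ebp2, a repressor of cap-dependent translation, was -0.55 and -0.89 in KO and 1.13 with treatment. Larp1, the TOP-binding repressor, was higher by 0.78 with treatment.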

How the data were processed

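PolyA RNA of 30 libraries (quadriceps and spinal cord of 15 mice, 10 groups of 3) was sequenced in single reads of 61 bases. The deposited values are a normalised signal per gene, not per length; cutadapt, RSEM, edgeR and limma are named with GRCm38 per the submitters' processing notes, with no role or version. Within each library 100% of values were whole multiples, within 0.001, of the signal of 1 read, so reads were recovered for count tests. Treated cord columns were joined to samples by the animal number in the title. Genes that reached a signal of 1 in 3 or more libraries of a tissue (of both tissues, for comparisons between them) were fitted as log2(signal + 0.5) with limma 3.58.1 in R 4.3.3, over 5 groups per tissue or all 10, with Benjamini-Hochberg adjustment over all genes tested and a threshold of 0.05. On recovered reads, edgeR 4.0.16 called 5059 genes (47 members higher, 2 lower) in B6;129 KO against WT quadriceps. DESeq2 1.42.0, quantile normalization, a pseudocount of 2, other filters, leaving out each replicate, the replicate block and copy rows summed were alternatives, the last chosen after seeing the data. Near-identical copies share at least 100 windows of 61 bases in GENCODE vM21 with a member and at least 25% of their own. Fits were tested on simulated data. Same-animal libraries of both tissues deviated together from their group means (r over all genes 0.109 to 0.354, 15 animals), and the labels state that they come from 1 animal. Other pairs gave -0.247 to -0.0347, which follows in part from centring each group of 3 on its mean. Over the members alone, r was 0.147 to 0.985 (median 0.834) for the same animal and -0.971 to 0.888 for other pairs. Members always named are the stalk proteins, Rpsa, Rps6 and members with a second form, then up to 5 called members per direction with the largest difference and the member nearest the median. Other members named (Rpl4 and members used to show a copy) were chosen after their values were seen, as were sequences. The members and gene lists were chosen with earlier results of these data known. Promoter sequences are from RefSeq. Rpl39l and Rpl10l were not analysed here, and values of some called members are not reported here. Depth was 16854081 to 37136087 reads per library, and 3 reads equal a signal of at most 0.216 in B6;129 WT quadriceps.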

Additional observations from a re-analysis of the deposited data

Results flagged for a closer look

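The effect of the knockout and of treatment differed between quadriceps and cord of the same animals for many ribosomal proteins, tested by the interaction of tissue with group in limma and adjusted over all genes. On B6;129, 35 members differed, where 12.2% of all genes were called more positive in quadriceps and 13.1% more negative. The count was lower with the animal as replicate block, as given above, and 19 to 47 without 1 library. The knockout difference in quadriceps minus that in cord was 0.93 for Rpl3, 0.48 for each of Rplp1, Rplp2 and Rps6, 0.47 for each of Rpl10 and Rpl39, 0.35 for Rpl7 and 0.27 for Rps4x on the log2 scale, and -0.60 for Rpl22l1, the single named member in the other direction. With the reads of near-identical copies added, Rps6 was 0.27 and Rpl10 0.29, the latter no longer called (limma adjusted p = 0.0535). In the DBA mix 51 members differed, where 13.6% of all genes were called more positive and 18.7% more negative. The values were 1.28 for Rpl3, 0.68 for Rpl39, 0.64 for Rps27, 0.61 for Rps6, 0.47 for Rplp1, 0.46 for Rpl10, 0.40 for each of Rpl7 and Rplp2, 0.36 for Rpl22 and 0.35 for Rps4x. With copies added Rps6 was 0.39 and Rpl10 0.26, again not called (limma adjusted p = 0.0673). For treated against untreated knockouts 58 members differed, where 19.6% of all genes were called more positive and 14% more negative. The values were -1.05 for Rpl3, -0.72 for Rpl39, -0.65 for Rps6, -0.61 for Rplp1, -0.57 for Rps27, -0.54 for Rplp2, -0.53 for Rpl7, -0.49 for Rps27l, -0.48 for Rps4x, -0.39 for Rpl22 and -0.24 for Rpl7l1. With copies added Rps6 was -0.40, still called. The DBA mix comparisons share the untreated knockout libraries.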

How the results depend on the processing

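The counts of members called in quadriceps for the knockout and for treatment stayed within 1.5 times under every scaling, filter and tool tried: leaving out 1 library gave 34 to 57 members on B6;129, 38 to 56 in the DBA mix and 56 to 63 for treatment. For treated against WT quadriceps (2 members) there were 0 without a filter, 1 with quantile normalization, 7 with DESeq2, 5 with copies summed and 0 to 5 without 1 library. WT quadriceps of the backgrounds (5) gave 2 with quantile normalization and with edgeR, 12 with DESeq2 and 2 to 6 without 1 library (lowest without DBA mix WT replicate 1). Where 0 were called, DESeq2 gave 1 for the background difference in quadriceps and in cord and 1 for B6;129 KO cord, and leaving out 1 library gave 0 to 1 in each. DBA mix KO cord (7) gave 12 with DESeq2 and 3 to 27 without 1 library, and treated against WT cord (9) gave 5 with copies summed and 3 to 8 without 1 library (lowest without WT replicate 1 or treated replicate 21). The tissue difference of the KO effect on B6;129 (35) was 23 with the animal as replicate block and 19 to 47 without 1 library; the block changed no other count by more than 1.5 times. The tissue comparison in WT (79 on B6;129) turned in direction with the DBA mix animals (54, mostly lower in quadriceps), and quantile normalization turned Rpl10 (-0.35), Rplp1 (-0.0056) and Rps6 (-0.61) there. Copies summed turned Rps3a1 in treated against WT cord (-0.12) and Rpl3 between WT cords (0.70). The Rps4l to Rps4x ratio, not called, was -0.26 to 0.0094 without 1 library, and positive without DBA mix KO replicate 6. The causes were not tested. Rows at a few reads, such as Rps4l in quadriceps and Rpl3l in cord, are limited by depth.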
